A study of Mus musculus with 6 samples.

Results

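The contacts of mouse chromosome 14 were taken from a Hi-C time course of P19, a mouse embryonal carcinoma line used as a model of neuronal differentiation. The deposited list named pairs of 5 kb bins with a significant contact in both libraries of at least 1 time point, and 184939 of its 3654014 pairs lay on chromosome 14 (5.06%). The pairs were chosen by chromosome alone. The chromosome itself was selected on values of the same list, namely how many pairs were listed, how far apart they were, their counts and the bins with no pair at a time point, so its values against the other 18 autosomes are given as a description and carry no test. The groups were untreated P19 cells (T0) and P19 cells kept with all-trans retinoic acid (ATRA) at 1e-06 M for 6 h (T6) or 48 h (T48), with 2 libraries each. Cells without ATRA were sampled at the start alone, so ATRA and time in culture cannot be told apart. Nothing in the labels says that the replicates were separate cultures, and the spread behind every p-value, being that between these libraries, may be technical. Genome positions are those of build mm9.

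In Hi-C, nuclei are fixed, DNA ends that are near each other are ligated, and the junctions are sequenced, so a pair of bins that meets often collects many read pairs. Contacts become rarer with distance along a chromosome, and beyond that decline they follow loops, domains whose bins meet one another more than their surroundings, and compartments of active and inactive chromatin. Retinoic acid binds nuclear receptors that sit on regulatory DNA, and in P19 cells it starts a programme of neuronal differentiation.

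Each library was represented by the counts of its listed pairs, whose sums ranged from 23003295 to 50154643 over the whole table and from 1003152 to 2161954 on chromosome 14. These sums are not the sequencing depth. Replicate 2 had the lower sum at every time point. The median listed pair of chromosome 14 had 12 counts in replicate 1 and 8 in replicate 2 of T0, 11 and 7 in those of T6, and 10 and 7 in those of T48. Listing was done per time point, which leaves the numbers and distances of listed pairs without an error between replicates, and a pair that was not listed was not shown to be without contacts. A listed pair of bins 5 kb apart had at least 29 counts in T0 replicate 1, so weaker contacts at that distance were not seen. All 6 counts of a pair are raw read pairs. They are uncorrected for bin coverage as far as the sources used here show, and differences in coverage between bins were not tested.

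Chromosome 14 had longer listed contacts than any other autosome. The median distance of its pairs was 115 kb at T0, 115 kb at T6 and 125 kb at T48, against 60 to 85 kb, 60 to 85 kb and 70 to 105 kb in the other 18 autosomes at the same times. Pairs at least 500 kb apart made up 16.8% of its list at T0, 16.7% at T6 and then 20.1% at T48. The highest shares among the other autosomes were 14.3%, 14.4% and 18.2%, all on chromosome 13. Chromosome X was above chromosome 14, with medians of 150, 145 and 150 kb and shares of 18.5%, 17.3% and 21.9%. In the plot of the autosomes, chromosome 14 stood above the rest in both measures at all 3 times, whereas all 19 autosomes had a higher share of long pairs at T48 than at T0.

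**Figure D1:**
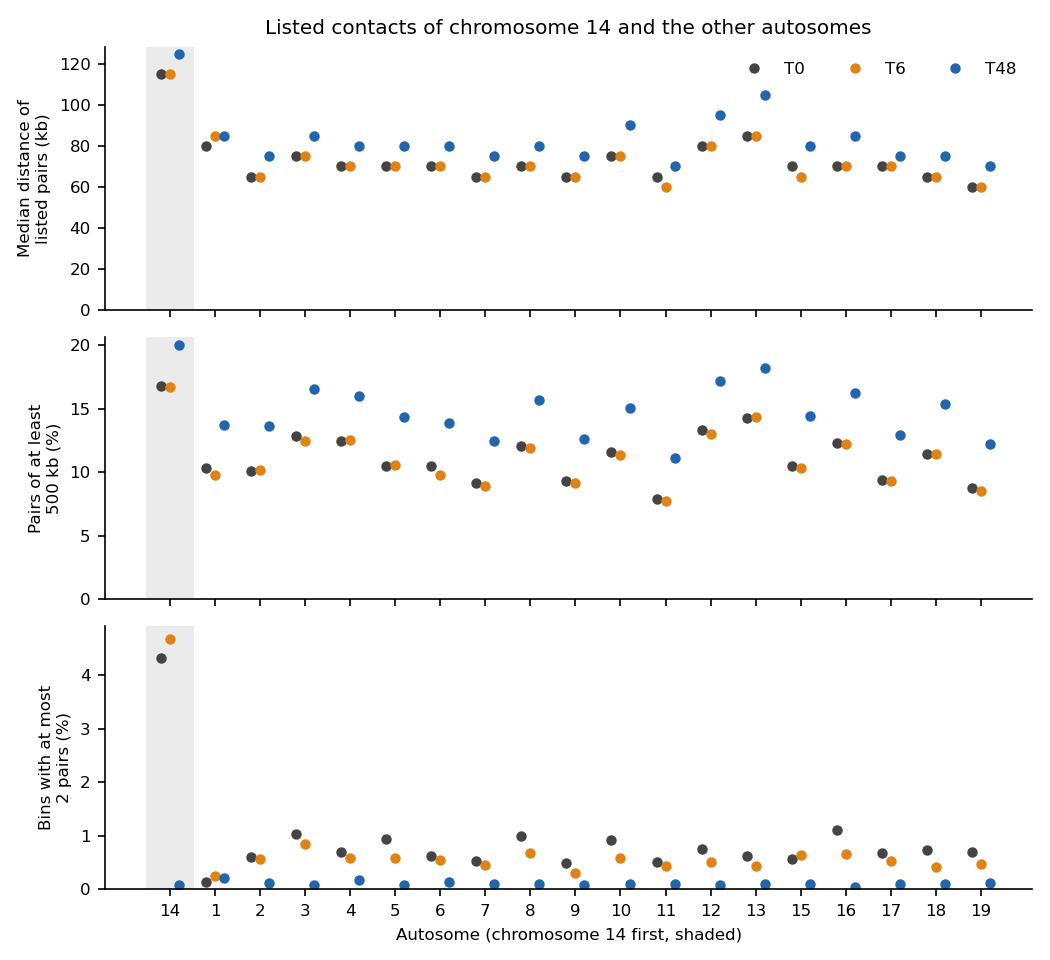
Median distance of listed pairs (top, kb), share of pairs at least 500 kb apart (middle, %) and share of bins with at most 2 pairs at a time point among bins with at least 20 pairs over the 3 times (bottom, %), for chromosome 14 (shaded) and the other 18 autosomes at T0, T6 and T48. Chromosome 14 was highest in the upper panels at every time, and in the bottom panel it stood at 4.32% at T0 and 4.68% at T6 but at 0.0708% at T48.

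The number of its pairs fell less by T6 than in the other autosomes, while at T48 it was close to the highest of them. Chromosome 14 had 89264 pairs at T0, 77443 at T6 and then 89493 at T48. Its log2 ratio of pairs was 0.0037 for T48 over T0, against -0.218 to 0.0003 in the others. This was the highest of 19 autosomes, with chromosome 13 next at 0.0003. For T6 over T0 the ratio of chromosome 14 was -0.205, against -0.256 to -0.233 in the others. Chromosome X was above chromosome 14 in both, with 0.0082 for T48 over T0 and -0.186 for T6 over T0. With a stricter list, which kept pairs with at least 1.5 times the lowest listed count at their distance in both replicates, chromosome 14 ranked 15 of 19 for T48 over T0, and its ratio was -0.12 then, against -0.24 to 0.05 in the others.

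Fewer of its pairs were kept through the time course. Of its pairs, 20946 were listed at all 3 times (11.3%), the lowest share of the 19 autosomes, against 13.1% to 19.5% in the others. A further 51119 pairs (27.6%) were listed at T48 alone, against 19.9% to 26.1%. The lists of T48 and T0 shared 21.2% of the pairs in either of them, the lowest of the 19, against a median of 27.3% and at most 32.0% in the others. Chromosome X was lower still, with 9.81% of pairs listed at all 3 times and 18.7% shared between T48 and T0.

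These features were not spread evenly along the chromosome. When the median count of neighbouring bins 5 kb apart was followed in windows of 1 Mb, the best single split of T0 replicate 1 fell at 71 Mb. The same search gave 70 or 71 Mb in each of the other 5 libraries. The part beyond 71 Mb, up to the last listed bin at 125175000, is called distal below, and the part from the first listed bin at 3035001 to 71 Mb proximal. Distal chromosome 14 held 98540 pairs and proximal chromosome 14 held 86285, while 114 pairs crossed the split. The split was placed after the values had been seen. Steps in this median were also found elsewhere, with a log2 step of up to 0.35 on chromosome 11 and of -0.46 on chromosome 7, and on chromosome 14 it was 0.19 to 0.47 over the 6 libraries.

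The long contacts belonged to the distal part. Its median distance was 200 kb at T0, 195 kb at T6 and 200 kb at T48, whereas proximal pairs were at 65, 65 and 75 kb and pairs of the other autosomes at 70, 70 and 80 kb. Pairs of at least 500 kb made up 24.7%, 23.9% and 26.6% of the distal lists at T0, T6 and T48. The proximal lists held 9.56%, 9.52% and 13.1%, and those of the other autosomes together 10.9%, 10.7% and 14.5%. The proximal part therefore lay close to the other autosomes at each time.

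The distal part also carried the low persistence and, in the full list, the higher number at T48. Of distal pairs 7.27% were listed at all 3 times, against 15.97% of proximal pairs and 15.4% of pairs on the other autosomes. The log2 ratio of pairs for T48 over T0 was 0.11 in the distal part and -0.10 in the proximal part. With the stricter list it was -0.14 in the distal part and -0.11 in the proximal part, so the distal direction turned. In the full list the distal part gained pairs at short and at long range. There were 5671 distal pairs under 20 kb at T0, 5244 at T6 and then 7753 at T48. Distal pairs of at least 500 kb numbered 10524, 9220 and 12243 at these times. The T48 over T0 ratio of the number under 20 kb was 1.37 in the distal part, 0.984 in the proximal part, and 0.978 to 1.03 in the other autosomes. Chromosome X had 1.22. At 20 to 50 kb the ratio was 1.08 in the distal part and 0.97 on chromosome X, against 0.70 to 0.84 in the other autosomes. At 500 kb to 1 Mb the ratio was 1.12 in the distal part, which was below the 1.20 of the other autosomes together. At 1 to 2 Mb it was 1.27 against 1.51, and from 2 Mb on 1.28 against 1.53. Single autosomes ranged from 1.09 to 1.27, from 1.23 to 1.62 and from 1.17 to 1.87 at these long distances. The distal values lay inside all of these ranges. The distal part thus stood out from the other autosomes at short range, as chromosome X did, and not at long range.

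Distal pairs that were well above the lowest listed count at T0 were often not listed again. Among pairs 20 to 500 kb apart with at least 3 times the lowest listed count in both T0 replicates, 113 of 189 distal pairs were again listed at T48 (59.8%, 95% Wilson interval 52.7 to 66.5%). The same share was 94.0% in the proximal part (219 of 233, 90.2 to 96.4%) and 91.3% in the other autosomes. At T6 the shares were 61.4% for distal, 95.7% for proximal and 94.6% for the other autosomes. These intervals cover counting error only, and pairs that share a bin are not independent.

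Single bins were listed very unevenly in the distal part at T0 and T6. Only bins with at least 20 pairs over the 3 times are considered here, of which there were 4752 in the distal part and 6555 in the proximal part. At most 2 pairs were listed for 453 distal bins at T0 (9.53%), 513 at T6 (10.8%) and then 1 at T48 (0.0210%). The proximal part had 36 such bins at T0 (0.549%), 16 at T6 (0.244%) and then 7 at T48 (0.107%). In the other autosomes together the shares were 0.686%, 0.523% and 0.105%. With the stricter list the T0 shares came much closer together, at 0.553% in the distal part and 0.326% in the other autosomes. In that list 723 distal bins reached 20 pairs, and the order of the times turned, with 4.15% of them at most at 2 pairs at T48, against 0.992% in the other autosomes.

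At the other end of the range, 46.97% of distal bins had at least 20 pairs at T0 alone, against 9.15% of proximal bins and 35.9% of bins on chromosome X. The distribution of pairs per bin in the distal part thus had a group of nearly unlisted bins and a group of heavily listed ones at T0 and T6, and a single hump at T48. From the 10% to the 90% quantile, distal bins had 3 to 28 pairs at T0, 2 to 26 at T6 and 10 to 24 at T48. For proximal bins these limits were 7 to 19, 6 to 16 and 7 to 18. Chromosome X also narrowed at T48, with limits of 5 to 26, 4 to 23 and 9 to 22.

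**Figure D2:**
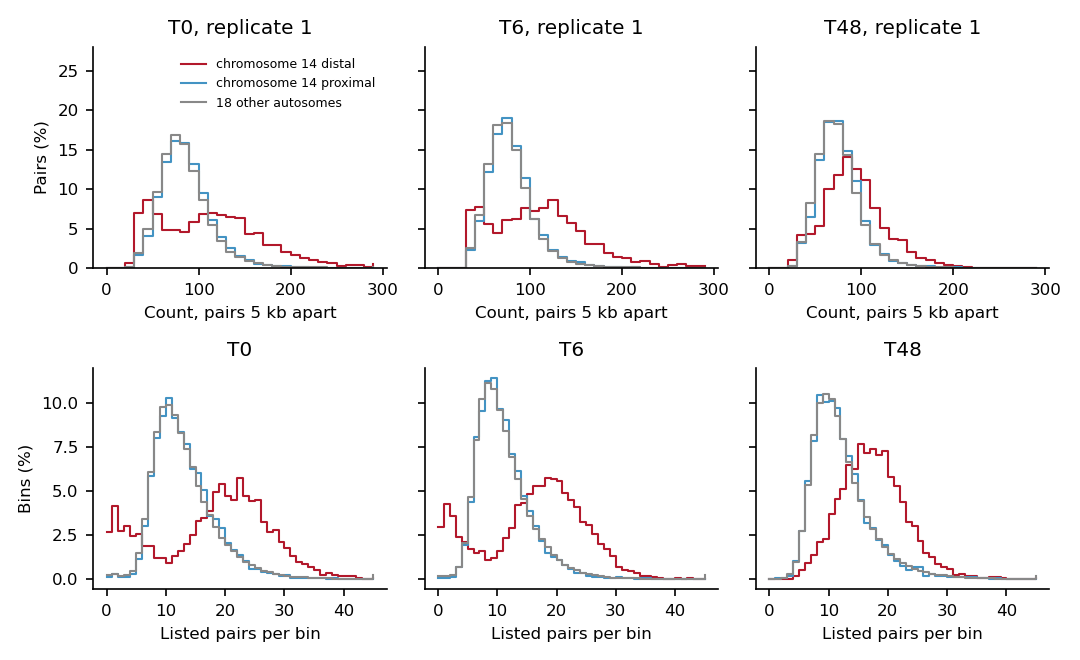
Top: counts of listed pairs of neighbouring bins 5 kb apart in replicate 1 of T0, T6 and T48 (read pairs, in steps of 10, the last step gathering higher counts), as a percentage of pairs. Bottom: listed pairs per bin at each time (the last step gathering higher numbers), as a percentage of bins with at least 20 pairs over the 3 times. Distal chromosome 14 was spread over low and high values at T0 and T6 and narrower at T48, while proximal chromosome 14 lay over the 18 other autosomes.

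Bins with no pair at all at a time point showed the same division. Of the 11307 bins of chromosome 14 with at least 20 pairs over the 3 times, 233 had no pair at some time point (2.06%), against 0.0572% to 0.694% in the other autosomes. The distal part held 220 of the 233. No pair was listed at T0 for 134 bins, at T6 for 145 and at T48 for 1, with 47 bins lacking pairs at both T0 and T6. A bin with no pair at T0 or T6 passes the minimum of 20 pairs through the other times alone, so the number of pairs of these bins at T48 is set by that minimum and is not given as a result.

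The change in number between T0 and T48 was one-sided over the whole distal part when every 5 kb position was counted, listed or not, with no minimum. Of 6264 distal positions with at most 2 pairs at T0, 904 had at least 10 at T48 (14.4%) and 53 had at least 10 at T6, while 0 positions went the opposite way between T0 and T48. In the proximal part 98 of 4384 positions gained in this way by T48 (2.24%) and 10 lost. Positions never listed are among those with at most 2 pairs and lower both shares. There were 10835 distal and 12600 proximal positions, while 7263 distal and 9381 proximal bins had a pair at any time.

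Positions with at most 2 pairs at T0 mostly had at most 2 at T6 in both parts. Without any minimum this held for 6005 of the 6264 distal positions and for 4183 of the 4384 proximal ones. Positions never listed at any time are included and agree by definition, so these numbers do not measure likeness of T0 and T6.

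Among bins with at least 20 pairs, the nearly unlisted ones of the distal part mostly stood as single bins. A neighbour below that minimum ends a run whatever its pairs at T0, so the minimum itself shortens runs. Whether longer blocks exist was therefore not shown. The 453 distal bins of T0 formed 421 runs of adjacent bins, of which 392 were 1 bin long and the longest was 3. Of the 240 whose next bin also had at least 20 pairs, 13.3% were followed by another such bin, against 8.74% over all distal bins.

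The number of pairs per bin in the distal part was alike at T0 and T6, and less alike at T48. Over its 4752 bins Pearson's r was 0.72 between T6 and T0, 0.06 between T48 and T0 and 0.05 between T48 and T6. These bins had at least 20 pairs over the 3 times, so a bin with at most 2 pairs at both T0 and T6 enters only through T48. This minimum can itself lower r between T48 and the earlier times. Over the 6555 proximal bins the coefficients were 0.70, 0.64 and 0.62. The other 18 autosomes ranged from 0.62 to 0.88 for T6 and T0 and from 0.56 to 0.73 for T48 and T0. Chromosome X had 0.73 and 0.38. With every listed bin counted the distal values were 0.87 for T6 and T0 and 0.55 for T48 and T0, and the other autosomes ranged from 0.77 to 0.90 and from 0.70 to 0.80. With the stricter list (723 distal bins) the distal bins were unlike at T6 and T0 as well, with r of 0.04 for T6 and T0 and 0.23 for T48 and T0, against 0.83 and 0.61 over the bins of the other autosomes. The proximal bins were also low in that list, with r of 0.24 for T6 and T0 and 0.30 for T48 and T0, so the low likeness there was not limited to the distal part. The bins of a time point share its 2 libraries, so these coefficients are descriptions and carry no p-value.

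Segments of 10 Mb showed where this held. All 6 segments from 70 Mb on had r of 0.67 to 0.76 between T6 and T0 but of -0.14 to 0.36 between T48 and T0. The lowest was the segment from 90 to 100 Mb (0.74 and -0.14), and the highest between T48 and T0 was the segment from 120 Mb on (0.74 and 0.36). The 6 segments below 70 Mb had r of 0.56 to 0.75 between T6 and T0 and 0.53 to 0.69 between T48 and T0. In 240 segments of the other autosomes r between T48 and T0 was 0.05 to 0.97. Of these, 10 were below the highest segment of chromosome 14 from 70 Mb on. The 17 segments of chromosome X had -0.02 to 0.79 between T48 and T0. The gap between both coefficients was 0.38 to 0.88 in the segments from 70 Mb on and 0.0023 to 0.10 below 70 Mb. It was -0.15 to 0.48 in the segments of the other autosomes and 0.11 to 0.63 in those of chromosome X.

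**Figure D3:**
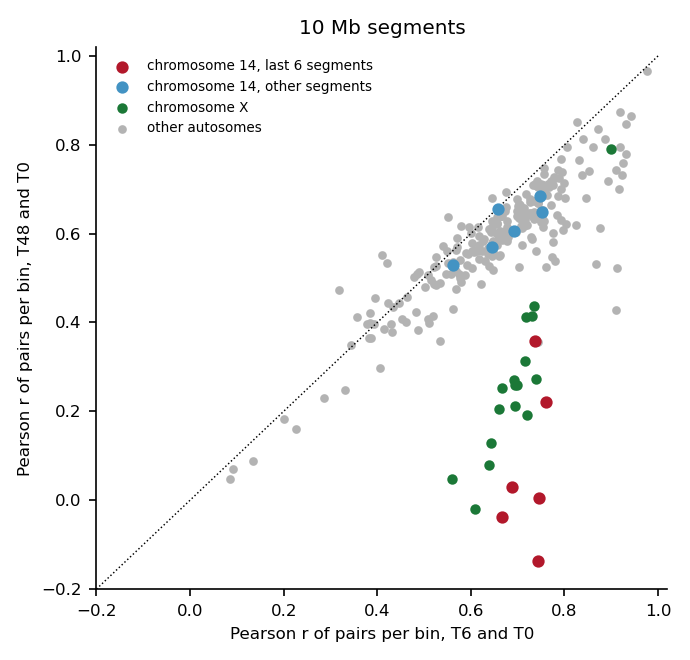
Pearson's r of the number of listed pairs per bin between T6 and T0 (horizontal) and between T48 and T0 (vertical), 1 point per 10 Mb segment with at least 200 bins that had at least 20 pairs over the 3 times. The dotted line marks equal coefficients. The last 6 segments of chromosome 14 lay far below the line, the 17 segments of chromosome X also lay below it, and the other segments of chromosome 14 lay among the other autosomes.

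The share of nearly unlisted bins separated the same segments. It was 5.66% to 11.2% at T0 in the 6 segments from 70 Mb on, 0 to 1.32% in the 6 segments below 70 Mb, and at most 4.16% in the 240 segments of the other autosomes, the highest being on chromosome 16. Chromosome X was the most alike, with 2.97% to 9.43% in 17 segments at T0 and 2.29% of its bins without a pair at some time point.

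The share of nearly unlisted bins rose stepwise between 70 and 80 Mb at T0 and T6. The best single split of this share in 1 Mb windows fell at 74 Mb at T0 and at 71 Mb at T6. Between 60 and 70 Mb, 0 of 1383 bins had at most 2 pairs at any of the 3 times. From 70 to 71 Mb it was 1 of 133 bins at T0, 1 at T6 and 0 at T48. From 71 to 72 Mb it was 5 of 113 bins at T0 (4.42%), then 7 at T6 and 0 at T48. From 72 to 74 Mb it was 10 of 211 (4.74%), 16 and 0, and from 74 to 80 Mb 65 of 681 (9.54%), 79 and 0. The first such bin after a stretch of 1524 bins with none was chr14:70730001-70735000, which had 8 pairs at T0, 1 at T6 and 12 at T48. Few pairs crossed the mark at 71 Mb, with 45 at T0, 44 at T6 and 59 at T48, and 477, 403 and 497 crossed the mark at 72 Mb. Of 109 such marks, 1 per Mb, the one at 71 Mb ranked 7 from the lowest at T0.

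**Figure D4:**
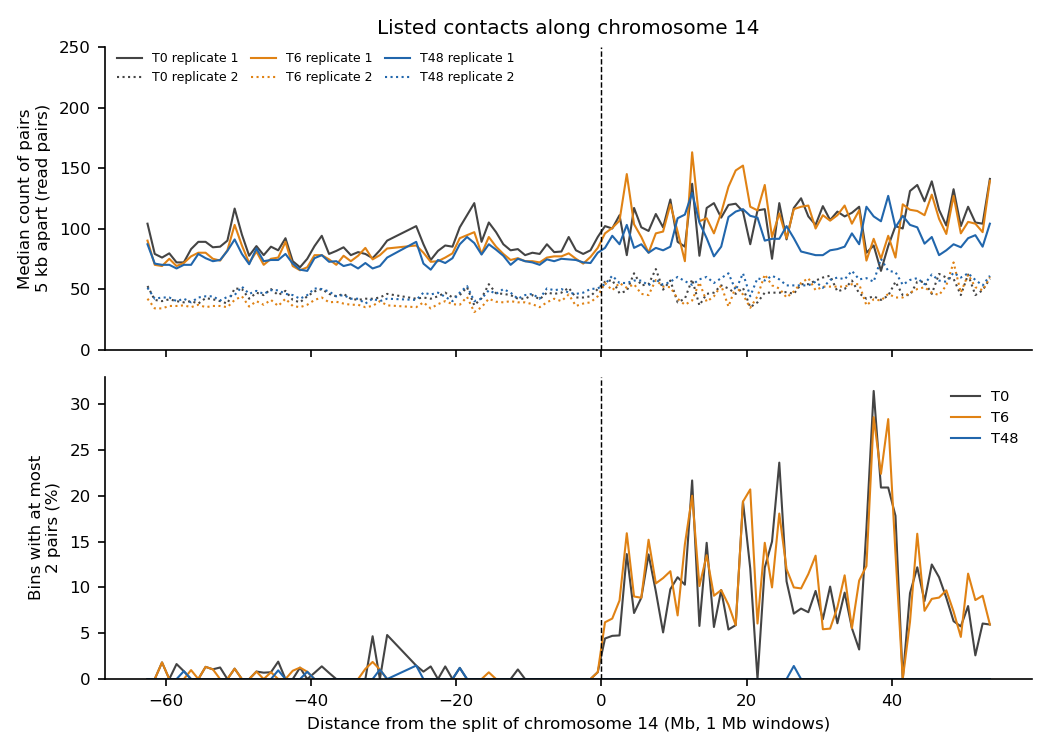
Median count of neighbouring bins 5 kb apart in each library (top, read pairs) and share of bins with at most 2 pairs at each time (bottom, %) in 1 Mb windows along chromosome 14, against the distance from the split (dashed line, Mb). Beyond the split the T0 and T6 shares were near 10% with single windows above 20%, and the T48 share stayed at 0 in nearly every window.

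The counts of neighbouring bins could be read library by library. Their median in the distal part was 110 in replicate 1 and 50 in replicate 2 of T0, 107 and 50 in those of T6, and 89 and 57.5 in those of T48. In the proximal part it was 83 and 44, 76 and 38, and 74 and 45. The distal median was above the proximal median in 6 of 6 libraries, at 1.14 to 1.41 times, and the proximal median was 1.00 to 1.03 times that of the other autosomes.

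The spread of these counts was wider in the distal part in every library. The standard deviation of their log2 values was 0.80 and 0.70 at T0, then 0.75 and 0.63 at T6 and then 0.56 and 0.59 at T48. It was 0.42 to 0.46 in the proximal part over all 6 libraries. Chromosome X was as wide, with 0.85 and 0.67 at T0, then 0.79 and 0.61 at T6 and then 0.62 and 0.58 at T48. The other 18 autosomes reached at most 0.54 at T0, 0.51 at T6 and then 0.56 at T48. The distal spread averaged 0.58 ± 0.02 at T48 against 0.75 ± 0.07 at T0 (SD, n = 2 each), and both T48 libraries were below both T0 libraries. In T0 replicate 1, 20.9% of distal counts were within 25% of the median of the other autosomes, 23.5% were lower and 55.6% higher, whereas 59.7% of proximal counts were near that median.

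Libraries of T48 were also unlike those of T0 in which neighbouring bins had high counts. Over the 2006 distal pairs 5 kb apart that were listed at all 3 times, Pearson's r of log2 counts between replicates of a time point was 0.46 to 0.49. Between T6 and T0 it was 0.75 and 0.64 for libraries with the same replicate number, and 0.48 and 0.46 for those with different numbers. Between T48 and T0 it was 0.36 and 0.37 for the same number, and 0.17 and 0.42 for different numbers. All 4 values for T48 and T0 were thus below all 3 values between replicates. Replicates of a time point differ in number, so the T6 and T0 values comparable with them are the 0.48 and 0.46. Over the 4601 proximal pairs the ranges were 0.57 to 0.60 between replicates, 0.56 to 0.76 for T6 and T0, and 0.53 to 0.69 for T48 and T0, which overlap.

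The share of all listed counts that fell on the distal part was 1.82% and 1.82% at T0, then 1.97% and 1.93% at T6 and then 2.07% and 2.11% at T48. It was higher at each later time in both replicates, and the T48 libraries did not overlap those of T0 (2.09 ± 0.03% against 1.82 ± 0.01%, SD, n = 2 each). The proximal share was 2.48% and 2.45% at T0, then 2.47% and 2.43% at T6 and then 2.43% and 2.37% at T48. A sum over listed pairs moves with how many pairs were listed, and the distal list was longer at T48.

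Counts of pairs listed at all 3 times do not move with the length of the list. A pair whose count was too low for the list at any time is left out, however. This selection can itself shift the mean ratio of the pairs that are kept, and its size was not tested. They are given as the mean log2 ratio of a pair, each library scaled to the same kind of pair on the other autosomes. For distal pairs under 20 kb (4030 pairs) the T48 over T0 ratio was -0.19 in replicate 1 and -0.09 in replicate 2, and for proximal pairs (8439 pairs) -0.01 and -0.02. The whole chromosome averaged -0.05 ± 0.02 (SD, n = 2), the lowest of 19 autosomes, against -0.03 to 0.02 in the others. The distal mean of -0.14 ± 0.08 (SD, n = 2) lay below the means of all 18 other autosomes, with replicates of unequal size, and chromosome X had -0.17 and -0.08.

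At 20 to 100 kb the distal T48 over T0 ratio was -0.16 and -0.17 (1930 pairs), and at 100 to 500 kb it was -0.18 and -0.16 (990 pairs), and the replicates were closer together. In the other autosomes the means were -0.02 to 0.04 and -0.04 to 0.03. The drop was shared by chromosome X, whose means were -0.16 for the shorter and -0.17 for the longer of these classes. Its replicates were less close together, with -0.20 and -0.12 in the shorter class. In the longer class they had -0.21 and -0.14. From 500 kb on (211 pairs) the distal ratio was -0.15 and -0.09, with a mean of -0.12 inside the range of the other autosomes (-0.23 to 0.20). Chromosome X had the same mean of -0.12 there. The T6 over T0 ratio of distal pairs was 0.03 and 0.01 under 20 kb and 0.07 and 0.0042 at 20 to 100 kb, on the opposite side of 0 from T48. At 100 to 500 kb it was -0.01 and -0.04, and from 500 kb on -0.08 and -0.07, on the same side as T48. By segments of 10 Mb, all 6 segments from 70 Mb on were below 0 for T48 over T0 in both replicates, at -0.26 to -0.15 in replicate 1 and -0.14 to -0.03 in replicate 2. The distal list at T48 thus held more short pairs than that at T0, while the pairs present throughout had lower counts.

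**Figure D5:**
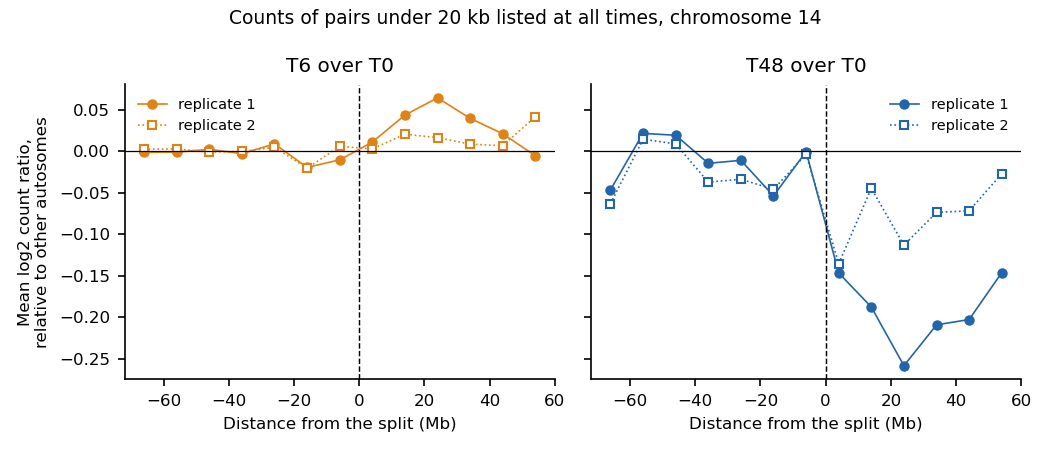
Mean log2 count ratio of pairs under 20 kb listed at all 3 times, relative to the other autosomes, in 10 Mb segments of chromosome 14 against the distance of their centres from the split (dashed line, Mb), for T6 over T0 (left) and T48 over T0 (right), 1 line per replicate. All segments beyond the split were below 0 at T48 in both replicates, with replicate 1 the lower in each.

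Strength was tested pair by pair with edgeR's quasi-likelihood F test on all pairs listed at all 3 times, with p-values adjusted by Benjamini-Hochberg over the whole table. Of 19140 tested pairs on chromosome 14, 0 passed an adjusted p of 0.05 in T6 over T0, T48 over T0 or T48 over T6, and 0 of the 496203 pairs of the whole table passed in each (0% called). The lowest adjusted p on chromosome 14 was 0.281 for T48 over T0. At an unadjusted p under 0.05 there were 813 pairs for T6 over T0 (4.25%, against 3.17% of all pairs), 1527 for T48 over T0 (7.98%, against 5.52%) and 1487 for T48 over T6 (7.77%, against 5.06%).

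DESeq2, the alternative tool, called 8 pairs of chromosome 14 for T48 over T0, where it called 0.0189% of all pairs, and 5 for T48 over T6, where it called 0.0149%. All of these calls were higher at T48 and joined neighbouring bins 5 kb apart, and 7 of the 8 and 5 of the 5 were distal. The one with the lowest p for T48 over T0 was the proximal pair of chr14:36935001-36940000 and the bin next to it, with 189 and 82 counts at T48 against 48 and 26 at T0 (log2 ratio 1.94 ± 0.26, SE, edgeR). DESeq2 gave it an adjusted p of 0.00799, and edgeR one of 0.294. A distal example was the pair of chr14:111200001-111205000 and its neighbour, with 193 and 107 counts at T48 against 71 and 33 at T0 (log2 ratio 1.64 ± 0.23, SE). All T48 libraries were above all T0 libraries for both pairs. These calls were made by DESeq2 alone.

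Summing the counts of these pairs over windows of 50 kb gave more counts per test. Of 2240 windows on chromosome 14, edgeR without a replicate block called 0 in each comparison, and of all 49387 windows it called 0% for T6 over T0, 0.0263% for T48 over T0 and 0.0182% for T48 over T6. At an unadjusted p under 0.05 chromosome 14 had 46 windows for T6 over T0 (2.05%, against 1.73% of all windows), 329 for T48 over T0 (14.7%, against 8.59%) and 318 for T48 over T6 (14.2%, against 6.72%).

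Most of those windows were distal and lower at T48. In the distal part 241 of 1039 windows (23.2%) were under that unadjusted p for T48 over T0, 219 of them lower, where windows that were lower made up 5.12% of the whole table. In the proximal part it was 88 of 1201 (7.33%), 51 of them lower. For T48 over T6 it was 246 distal windows (23.7%), 229 of them lower, against 3.95% lower in the whole table, and 72 proximal windows (6.00%). The median log2 ratio of distal windows was -0.19 for T48 over T0 and -0.20 for T48 over T6, and 0.02 for T6 over T0. Proximal windows had medians of -0.01, -0.0017 and -0.0025 in the same comparisons.

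DESeq2 called 10 windows on chromosome 14 for T48 over T0, all lower and all distal. Over the whole table it called 116 windows (0.235%), of which 103 were lower. For T48 over T6 it called 11 on chromosome 14, 10 of them lower and all 11 distal, and 83 over the whole table (0.168%), 67 of them lower. Most calls were thus lower over the whole table as well. The lower window with the lowest p was chr14:80400001-80450000, with 650 and 433 counts at T48, against 1100 and 634 at T0 (14 pairs, log2 ratio -0.58 ± 0.06, SE). Its adjusted p was 0.123 by edgeR and 0.000434 by DESeq2. The window chr14:98150001-98200000 had 730 and 512 counts at T48 against 1202 and 710 at T0 (17 pairs, log2 ratio -0.52 ± 0.06, SE), with an adjusted p of 0.151 by edgeR and 0.00123 by DESeq2. In both windows replicate 2 of T0 had fewer counts than replicate 1 of T48, so the raw counts of both times overlap until they are scaled to the library.

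The window with the lowest edgeR p for T48 over T0 had more counts at T48. It was chr14:107300001-107350000, with 338 and 217 counts at T48 against 143 and 75 at T0, and 132 and 67 at T6 (3 pairs, log2 ratio of T48 over T0 1.45 ± 0.14, SE). Its adjusted p was 0.0993 by edgeR for T48 over T0, so it was not called, and it was the 1 higher window that DESeq2 called for T48 over T6. The 3 higher windows named for T48 over T0 held 3, 19 and 3 pairs.

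The bins with the largest changes in number of pairs were chosen by that change, as the 3 largest gains and losses of each comparison, and are listed as a description. Of these 18 entries, 12 were distal, and they named 15 different bins. The bin chr14:100330001-100335000 had 0 pairs at T0, 1 at T6 and 34 at T48, and its T48 pairs carried 362 and 300 counts. The bin chr14:72595001-72600000 had 0, 0 and 30 pairs. Its partners lay on its left in 26 cases and on its right in 4, at a median distance of 517.5 kb, and the bin chr14:80630001-80635000 had 0, 0 and 29 pairs.

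Changes at 6 h were seen in single bins in both directions. The bin chr14:113440001-113445000 had 0 pairs at T0, 27 at T6 and then 17 at T48. In contrast, chr14:91045001-91050000 had 20 pairs with 504 and 249 counts at T0, none at T6 and 13 pairs with 300 and 215 counts at T48. The 3 largest losses between T0 and T48 were proximal, among them chr14:26300001-26305000, with 19, 13 and 0 pairs. A count of 0 here means that the bin had no listed pair at that time.

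Windows of 1 Mb with at least 200 pairs at T0 and T48 together showed the regional size of the gain at T48. Chromosome 14 held 115 of 2533 such windows, and 9 of the 50 with the highest log2 ratio of pairs for T48 over T0, but 0 of the 50 with the lowest. The highest of the whole genome was the window from 110 to 111 Mb, with 409 pairs at T0, 437 at T6 and 747 at T48 (log2 ratio 0.87), and the next was 108 to 109 Mb, with 456, 470 and 775 pairs (0.76). In the window from 110 to 111 Mb the listed counts in CPM (scaled to the library's sum) were 217 and 183 at T0, then 260 and 231 at T6 and then 382 and 357 at T48. Counted over the pairs listed at all 3 times they were 225 and 160 at T0, then 217 and 179 at T6 and then 195 and 182 at T48, and the T48 values lay within those of T0. In this window the gain at T48 was therefore in the number of listed pairs and was not seen in the pairs listed throughout.

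The windows from 83 to 84 Mb, 109 to 110 Mb and 95 to 96 Mb followed on the chromosome, with log2 ratios of 0.61, 0.59 and 0.43. The lowest was the window from 49 to 50 Mb, with 999, 830 and 765 pairs (-0.38). Over all 54 distal windows the median log2 ratio was 0.10 and 39 were above 0. Over the 61 proximal windows it was -0.12 and 13 were above 0, against a median of -0.06 in all 2533 windows.

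Long contacts that lasted were rare and mostly proximal. Of 41961 pairs at least 500 kb apart, 579 were listed at all 3 times (1.38%, against 2.01% in the other autosomes), 211 in the distal part and 368 in the proximal part. The one furthest above the lowest listed counts joined chr14:53330001-53335000 and chr14:54040001-54045000, 710 kb apart, with 65 and 88 counts at T0, then 91 and 82 at T6 and then 157 and 85 at T48. Another joined chr14:42075001-42080000 and chr14:43120001-43125000, with 54 and 704 counts at T0, then 60 and 604 at T6 and then 92 and 687 at T48. Replicate 2 had far more counts than replicate 1 at all 3 times, so the replicates give no common level for it. A distal one joined chr14:99540001-99545000 and chr14:100290001-100295000, 750 kb apart, and was even, with 18 and 21 counts at T0, then 17 and 20 at T6 and then 19 and 17 at T48.

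Genes could not be placed on these bins, because no annotation of build mm9 was used here. The RefSeq table of assembly GRCm38.p6 lists 851 protein-coding genes on chromosome 14, which ranks 13 among the 19 autosomes. From a list of 30 developmental genes of this chromosome 29 were found, and their order from the centromere is given for orientation only. It begins with Rarb, a retinoic acid receptor, and Thrb, a thyroid hormone receptor, and passes Bmp4, a growth factor, Otx2, a transcription factor of the forebrain, and Gata4, a transcription factor of endoderm and heart. Then come Nefl and Nefm, which encode neurofilament proteins, a group of protocadherins (Pcdh8, Pcdh17, Pcdh20 and Pcdh9), which are cell adhesion proteins, and Ednrb and Pou4f1, which act in neural crest and sensory neurons. It ends with Slitrk1, Slitrk6 and Slitrk5, membrane proteins of synapses and neurites, the glypicans Gpc5 and Gpc6, and the transcription factors Sox21, Zic5 and Zic2. No contact was assigned to any of these genes.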

How the data were processed

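Hi-C was made from P19 cells at 3 time points with 2 libraries each. Build mm9, Bowtie2 and CASAVA 1.8.2 are named in the submitters' processing notes. The authors deposited 1 table of pairs of 5 kb bins with raw read-pair counts per library, and a count of 0 in both replicates was read as not listed at that time. The sources used here name neither the enzyme nor the caller and threshold of significant pairs. The lowest listed count was 3, and distances ran from 5 kb to 10 Mb.

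Pairs listed at all 3 times, and their sums in 50 kb windows, were tested over the whole table with edgeR 4.0.16 (R 4.3.3): TMM scaling, filterByExpr and the quasi-likelihood F test over all 6 libraries, with Benjamini-Hochberg adjustment at 0.05. The alternatives were DESeq2 1.42.0, DESeq2 size factors in edgeR, all pairs unfiltered, the replicate number as a block, and fits without 1 library. The steps were tested on simulated data. Lists were described with Python 3.11.15, pandas 2.3.3, numpy 2.4.6 and scipy 1.17.1. Named bins are the 3 largest gains and losses of each comparison (log2 ratio of pairs per bin with 0.5 added, bins with at least 20 pairs, 1 per 500 kb). Named pairs and 50 kb windows are the 3 with the lowest edgeR p in each direction and up to 10 called in any fit, and named 1 Mb windows the 5 with the highest and the 5 with the lowest log2 ratio. The chromosome, its split, the lists and the named features were chosen with earlier results of these data known. Precision is limited by 2 libraries per time point, and intervals cover counting error only. The mitochondrial pairs (4) were left out.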

Additional observations from a re-analysis of the deposited data

Results flagged for a closer look

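Counts of pairs under 100 kb listed at all 3 times lay on opposite sides of 0 at T48 and T6, each relative to T0 and to the other autosomes, in both replicates. At 100 to 500 kb and beyond, both times were below 0 in the distal part. These differences between time points were not tested. For pairs under 20 kb the mean log2 ratio of chromosome 14 was -0.054 for T48 over T0 and 0.0047 for T6 over T0. In its distal part these were -0.14 and 0.022. For pairs of 20 to 100 kb the means were -0.062 and 0.019 on the whole chromosome, and -0.17 and 0.038 in the distal part. T48 over T0 and T6 over T0 share the T0 libraries.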

How the results depend on the processing

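The number of pairs listed for T48 over T0, relative to the median autosome, was 0.072 on the log2 scale. It turned to -0.045 with the stricter list and was 0.057 for pairs of at least 20 kb. The T6 over T0 value of 0.041 became 0.092 with the stricter list. The gain in the share of long pairs, T48 minus T0, was 3.29 percentage points at 500 kb and 1.42 at 1 Mb. With the median over pairs, the count ratio was 0.000199 for T6 over T0 on chromosome 14 and -0.22 for T48 over T0 in the distal part. Bins without a pair at a time point were 4.79% with at least 10 pairs per bin, 0.0578% with at least 40 and 0.658% with the stricter list, against 1.28%, 0.00926% and 0.167% in the other autosomes. Distal bins with at most 2 pairs at T0 were 17.9%, 0.235% and 0.553% under the same settings. The distal likeness of T48 and T0 (r of 0.06) was 0.55 with every listed bin, 0.19 with at least 10 pairs, 0.22 with at least 40 and 0.23 with the stricter list. DESeq2 called 8 pairs for T48 over T0 and 5 for T48 over T6, and 10 and 11 windows. Replicate numbers mark no shared culture or day in the labels, but same-numbered libraries deviated together (r of 0.33, 0.24 and 0.23 on chromosome 14 for T6 and T0, T48 and T0, and T48 and T6). With the replicate block edgeR called 0 pairs of chromosome 14. It called 38 of its windows for T48 over T0 (34 lower), against 310 of all windows (0.628%, 266 of them lower). For T48 over T6 it called 28 (27 lower), against 193 of all windows (0.391%, 170 of them lower). The windows chr14:107300001-107350000, chr14:80400001-80450000 and chr14:98150001-98200000 then had adjusted p of 0.0062, 0.0125 and 0.00878 for T48 over T0 by edgeR. Leaving out 1 library at a time gave 0 calls in each of the comparisons of pairs and windows. Count ratios were not recomputed in that way. Taken from 1 replicate number alone, they were -0.068 and -0.040 for T48 over T0 and 0.0060 and 0.0035 for T6 over T0 on chromosome 14. In the distal part they were -0.19 and -0.085 for T48 over T0. The causes of these shifts were not tested.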
